A study of Mus musculus with 29 samples.

Results

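The genes described are the 6 mouse Dlx genes (Dlx1 to Dlx6), Gad1, Gad2 and Lhx6, which were chosen by name as genes of the Dlx family and of GABA neurons of the forebrain. They are 9 of the 21938 protein-coding genes of the mouse annotation, and each was examined in a window of its gene body and 50 kb on either side. The measurements were positions of anti-HA ChIP-seq peaks in NIH-3T3 cells, a line of mouse fibroblasts. Each line carried a doxycycline-inducible lentiviral construct that encodes 1 transcription factor with HA tags at its C-terminus, and all lines received 500 ng/ml doxycycline overnight. The 28 peak lists came from 24 constructs, namely 21 wild-type factors, the mutants FOXA1_RR-HA and FOXA1_SW-HA, and SOX2-YPET OCT4-HA, in which OCT4-HA was co-expressed with SOX2-YPET. The constructs OCT4-HA, SOX2-HA, BHLHB8-HA and FOXA1-HA had 2 lists each. DLX1-HA and DLX6-HA had 1 list each and so have no replicate error of their own. The lists held 304922 peaks, from 52 to 61991 per list, with 20124 in the list labelled DLX1-HA and 20983 in DLX6-HA. Read numbers are not in the files, so the depth behind each list is unknown. No expression was analysed here, so whether the 9 genes were transcribed in these fibroblasts was not examined.

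DLX proteins are homeodomain transcription factors, encoded in mammals by linked pairs of genes that are transcribed towards each other. In the embryonic forebrain, Dlx1, Dlx2, Dlx5 and Dlx6 act in the ganglionic eminences in the development of GABA neurons, and Dlx3, Dlx5 and Dlx6 are also known for roles in the branchial arches, teeth and bone. Gad1 and Gad2 encode glutamate decarboxylases, which make GABA, and Lhx6 encodes a LIM homeodomain factor of interneurons born in the medial ganglionic eminence.

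Before the member genes were compared, the list labelled DLX1-HA was set against its label. The cells of each line hold an integrated coding sequence of the introduced factor, and reads from that copy and from the gene itself cannot be told apart on coding exons. DLX6-HA had its widest peak on Dlx6, with 3476 bp against 1908 bp for the next widest and a median of 300 bp. On Dlx6 lay also the widest peak labelled DLX1-HA, with 2209 bp against 1465 bp for the next widest and a median of 284 bp. On the coding exons of Dlx1 the list labelled DLX1-HA had 0 peaks. In neither list was a coding intron of at least 1000 bp covered from end to end at any gene other than Dlx6. A peak on a coding exon of the introduced factor was present for 8 of the 21 wild-type constructs. Of 7 pairs of a list and a factor gene in which a peak ran over a whole coding intron of that gene, 5 were in lists of the gene's own construct. The other 2 were the list labelled DLX1-HA at Dlx6 and BHLHB8-HA replicate 2 at Prr3. Coding sequences of Dlx1 (765 bp) and Dlx6 (891 bp) shared none of the 746 runs of 20 bases in Dlx1, on either strand.

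Other values also set the list labelled DLX1-HA apart from DLX6-HA. It had a peak of 536 bp on the single coding exon of Bhlha15, the gene of BHLHB8, a basic helix-loop-helix factor. The BHLHB8-HA lists had peaks of 584 and 582 bp there and TEAD1-HA had 1 of 537 bp. The letters CAGCTG, an E-box of the kind such factors are known to bind, were present in the central 200 bp of 29.7% of peaks labelled DLX1-HA (exact 95% binomial interval 29.1 to 30.4). The share was 14.3% in DLX6-HA (interval 13.9 to 14.8), and 37.8% and 35.1% in the BHLHB8-HA lists. Over the merged sites of all lists it was 19.9%. In all, 77.0% of peaks labelled DLX1-HA overlapped a BHLHB8-HA peak by at least 1 bp, against 67.4% of DLX6-HA peaks. Among the peaks that did, CAGCTG was present in 36.0% of those labelled DLX1-HA and 19.1% of those of DLX6-HA. Of the peaks that overlapped no BHLHB8-HA peak, 4632 were labelled DLX1-HA and 6850 belonged to DLX6-HA. Of these, 8.83% of those labelled DLX1-HA and 4.57% of those of DLX6-HA held CAGCTG. The homeodomain letters TAATTA were present in 20.2% and 20.3% of them, against 5.40% over the merged sites of all lists. Intervals cover counting error only. What lies behind the Dlx6, Bhlha15 and E-box values of the list labelled DLX1-HA was not tested. The main counts and the test below are also given without that list or without its peaks in Dlx6.

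Dlx6 lies on chromosome 6 from 6863334 to 6868568 on the plus strand (GRCm38, the assembly also called mm10), and its coding exons run from 6863380 to 6863827, from 6865078 to 6865271 and from 6867041 to 6867289. The DLX6-HA peak ran from 6863818 to 6867293. It began 10 bp before the end of the first coding exon, covered the introns of 1250 and 1769 bp, and ended 4 bp past the last coding base before the stop codon. It covered 453 coding bases. The peak labelled DLX1-HA ran from 6865018 to 6867226, from 60 bp before the second coding exon to 63 bp before the end of the third, with 380 coding bases. A second peak labelled DLX1-HA, of 205 bp, lay in the first intron from 6864499 to 6864703. The TEAD1-HA peak lay over 312 coding bases of the first exon and the start of its intron, from 6863516 to 6864062. It overlapped the start of the DLX6-HA peak but neither peak labelled DLX1-HA. The 2 edges of the DLX6-HA peak are shown because they lie within 10 bp of the coding ends of the first and last coding exons. Coding bases are in capitals and the bases outside them in lower case.
Dlx6 end of the first coding exon, chr6:6863798-6863857, plus strand: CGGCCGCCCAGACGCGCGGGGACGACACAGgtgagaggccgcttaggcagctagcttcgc
Dlx6 end of the last coding exon to the end of the peak, chr6:6867260-6867293, plus strand: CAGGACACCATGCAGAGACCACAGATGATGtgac

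**Figure D1:**
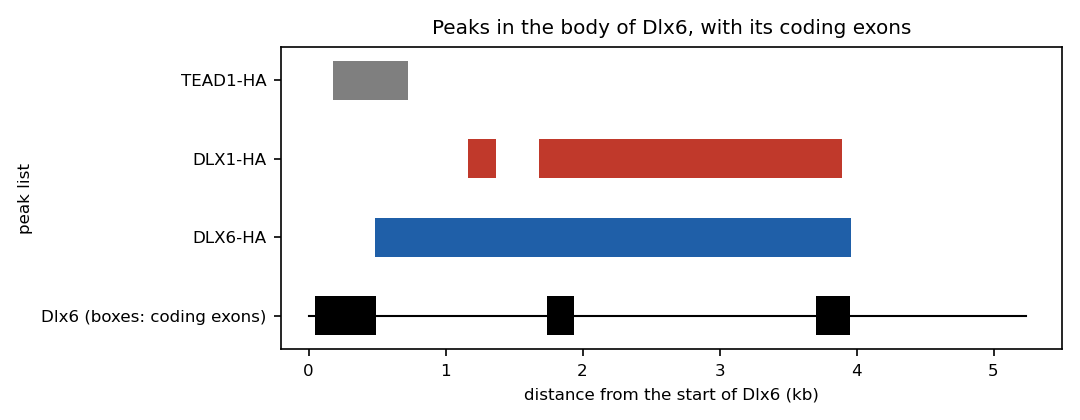
Peaks in the body of Dlx6 (bars, 1 row per list) against distance from the start of the gene in kb, with the 3 coding exons as black boxes. The DLX6-HA bar of 3476 bp starts in the first coding exon and stops at the end of the third, the long bar labelled DLX1-HA spans 2209 bp of the same stretch, and the TEAD1-HA bar of 547 bp lies on the first exon.

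Over all 28 lists, 192 peaks lay in the member windows, which merge into 6 loci because the paired Dlx genes are neighbours. The Dlx3-Dlx4 locus held 79 of them, Dlx1-Dlx2 held 52, Gad2 held 25, Lhx6 held 15, Gad1 held 13 and Dlx5-Dlx6 held 8. Most lay away from the genes: 123 were between protein-coding genes and 19 in another protein-coding gene, against 13 on coding exons, 10 on UTR exons, 22 in introns and 5 within 1 kb of a start site but on no exon (promoter). Counted regardless of exons, 22 of the 192 peaks had their midpoint within 1 kb of a start of a member. TEAD1-HA had such a peak at 7 of 9 members, all but Dlx3 and Gad2, against 32.0% of all protein-coding genes. BHLHB8-HA had one at 4 (46.6%), the list labelled DLX1-HA at 4 (12.9%), of which the one at Dlx6 is the 205-bp peak above, and DLX6-HA at 0 (8.04%). This count was chosen after the positions were seen. Without the list labelled DLX1-HA 176 peaks remained in the windows, and without the DLX peaks in the body of Dlx6 189.

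The list labelled DLX1-HA had 16 peaks in these windows and at least 1 at 9 of 9 members, where 60.5% of all protein-coding genes had a peak of that list in the same kind of window. DLX6-HA had 11 peaks and reached 7 of 9 members, against 53.1% of all genes, with none at Gad1 and Lhx6. Paired genes share most of their windows, so the 9 members are fewer than 9 separate observations. Without the peaks in the body of Dlx6 the counts were 7 of 9 for the list labelled DLX1-HA and 5 of 9 for DLX6-HA, since neither list had any other peak in the windows of Dlx5 and Dlx6.

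The other constructs reached between 0 and 9 members. BHLHB8-HA, with the longest lists, had a peak at 9 of 9 members (86.0% of all genes), and TEAD1-HA, a factor of the Hippo pathway, at 8 (68.8%). DUXBL-HA, a double homeobox factor, reached 6 (64.2%), ZFP319-HA 6 (59.4%) and SOX2-HA 6 (57.8%). These 5 constructs, like DLX1-HA, DLX6-HA and CDX2-HA, had peaks near most genes of the genome. CDX2-HA, another homeodomain factor, reached 4 (56.4%), EBF1-HA 4 (38.8%), SIX6-HA 4 (27.8%) and SOX15-HA 4 (22.0%). TOX3-HA, an HMG-box factor, also reached 4, against 10.1% of all genes. FOXA1-HA reached 3 members (28.2%), MAX-HA 3 (23.0%) and HLF-HA 3 (15.6%). RHOX11-HA reached 1 (34.3%), SOX2-YPET OCT4-HA 1 (15.9%) and BRACHYURY-HA 1 (3.92%). FOXA1_RR-HA, FOXA1_SW-HA, NANOG-HA, OCT4-HA, PRR3-HA and THAP4-HA had none, in lists of 52 to 396 peaks. Duplicate lists are merged in these counts. Taken singly, replicates 1 and 2 reached 7 and 9 members for BHLHB8-HA, 6 and 5 for SOX2-HA, and 3 and 0 for FOXA1-HA.

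**Figure D2:**
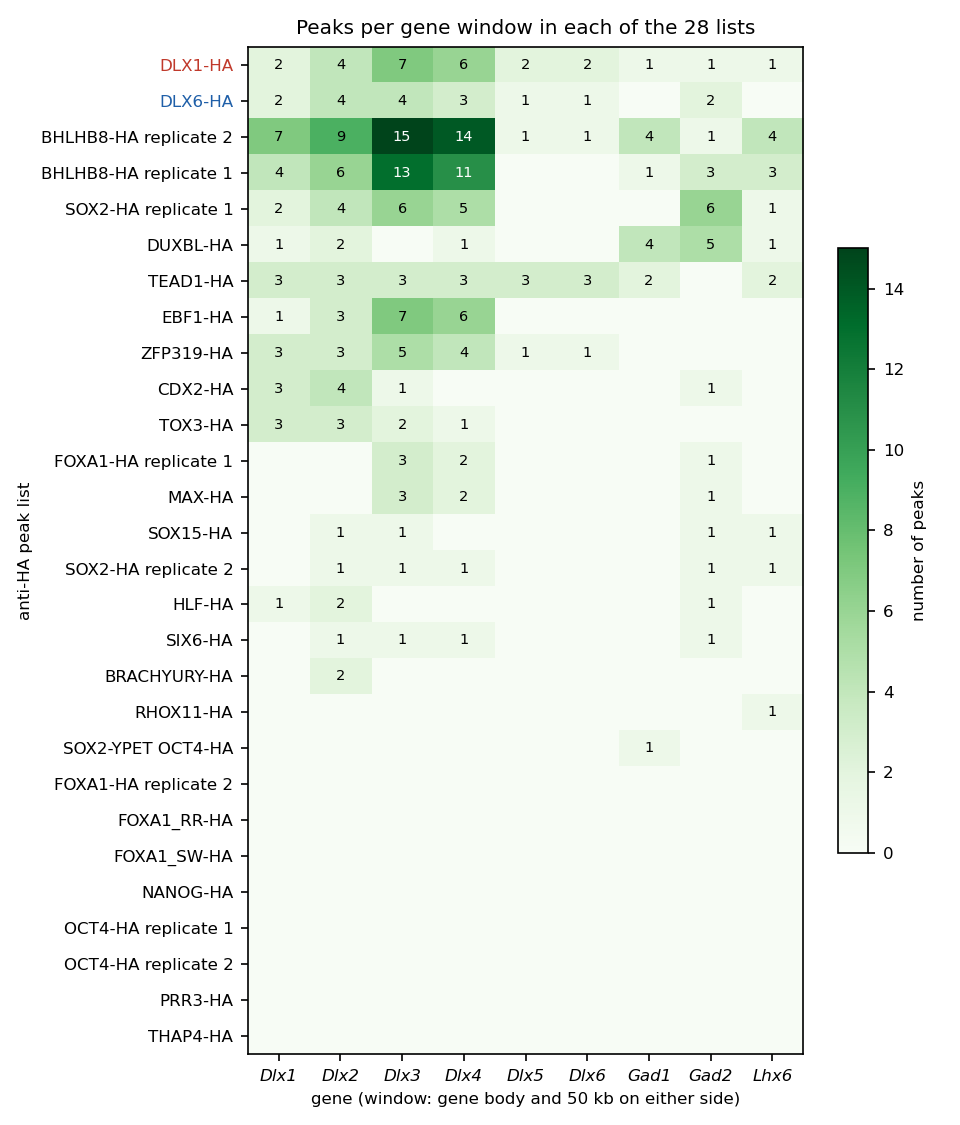
Number of peaks in the window of each member gene (columns) in each of the 28 lists (rows), with darker green for more peaks and an empty cell for none. BHLHB8-HA replicate 2 has 15 peaks at Dlx3, the list labelled DLX1-HA has peaks in all 9 columns, and 8 lists at the bottom have none.

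At the Dlx1-Dlx2 locus 14 constructs had a peak. Dlx1 lies on chromosome 2 from 71528113 to 71533981 on the plus strand and Dlx2 from 71543408 to 71546754 on the minus strand. Peaks labelled DLX1-HA and those of DLX6-HA shared 3 positions there. One was the first coding intron of Dlx1 (650 bp), with a peak of 168 bp in the list labelled DLX1-HA (71530568 to 71530735) and one of 180 bp in DLX6-HA (71530590 to 71530769). Besides these, only CDX2-HA had a peak there. All 3 factors have homeodomains. Other constructs of factors with homeodomains had no peak there, namely DUXBL-HA (24318 peaks in all), SIX6-HA (6075), RHOX11-HA (4579), NANOG-HA (396) and OCT4-HA (119). The 3 peaks in the intron were among the narrower ones of their lists. By width they ranked 19138 of 20124 (labelled DLX1-HA), 19053 of 20983 (DLX6-HA) and 23664 of 25278 (CDX2-HA). The site overlapped the annotation of the antisense gene Dlx1as. The other 2 shared positions lay upstream of Dlx2, 42498 and 47741 bp from its start by the midpoints of the peaks labelled DLX1-HA. They were among the most shared sites of all member windows, with peaks of 8 and 9 constructs, among them BHLHB8-HA, BRACHYURY-HA, EBF1-HA and SOX2-HA. At the start of Dlx2 the lists differed. A peak labelled DLX1-HA, of 514 bp, lay over the first coding exon (71546217 to 71546730), where BHLHB8-HA and TEAD1-HA also had peaks and DLX6-HA had none. DLX6-HA had a peak of 200 bp 1407 bp upstream (71548061 to 71548260), the 1 DLX6-HA peak of the member windows that no other construct overlapped. In the 9426 bp between Dlx1 and Dlx2 lay 5 peaks of BHLHB8-HA, EBF1-HA, SOX2-HA and TOX3-HA, and none of either DLX list.

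The sequences of these 4 sites are given as 200 bp on the plus strand, centred on the overlap of the 2 DLX lists or on the single peak. Capitals mark the letters TAATTA (homeodomain), TGANTCA (the site known for AP-1, where N is any base) and CAGCTG, each of which reads the same on both strands. They do not overlap one another in these windows. The Dlx1 intron and the DLX6-HA site near Dlx2 held TAATTA, and the 2 far sites held TGANTCA instead.
Dlx1 intron, chr2:71530563-71530762: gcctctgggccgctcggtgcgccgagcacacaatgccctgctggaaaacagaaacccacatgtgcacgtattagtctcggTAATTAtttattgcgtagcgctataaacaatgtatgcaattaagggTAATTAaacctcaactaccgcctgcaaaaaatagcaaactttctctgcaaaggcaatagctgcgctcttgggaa
Dlx2 near upstream, DLX6-HA alone, chr2:71548061-71548260: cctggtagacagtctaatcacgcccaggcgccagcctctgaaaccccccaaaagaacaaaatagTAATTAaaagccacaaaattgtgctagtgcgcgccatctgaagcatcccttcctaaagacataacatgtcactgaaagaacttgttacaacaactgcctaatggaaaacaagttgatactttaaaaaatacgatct
Dlx2 far upstream, 8 constructs, chr2:71589162-71589361: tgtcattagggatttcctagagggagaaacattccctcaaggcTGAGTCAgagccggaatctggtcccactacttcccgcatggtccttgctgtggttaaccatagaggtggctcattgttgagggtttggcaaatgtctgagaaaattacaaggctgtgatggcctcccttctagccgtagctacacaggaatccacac
Dlx2 far upstream, 9 constructs, chr2:71594674-71594873: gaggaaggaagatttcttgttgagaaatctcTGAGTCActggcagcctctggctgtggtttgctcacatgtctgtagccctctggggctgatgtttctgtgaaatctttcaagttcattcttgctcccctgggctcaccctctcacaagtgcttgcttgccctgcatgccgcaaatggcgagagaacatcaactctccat

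Windows of the same length at the centre of all DLX6-HA peaks held TAATTA in 10.2% and TGANTCA in 34.4%, and those of the list labelled DLX1-HA in 8.30% and 34.0%. Over the merged sites of all lists the shares were 5.40% and 13.9%. TGANTCA was about as common in lists of some other factors, with 36.9% and 36.1% in SOX2-HA, 35.1% in SOX15-HA and 32.3% in SIX6-HA. Other lists had less, down to 2.05% in TEAD1-HA. Among peaks that overlapped no BHLHB8-HA peak, TGANTCA was present in 41.1% of those labelled DLX1-HA and 32.0% of those of DLX6-HA. For TAATTA, CDX2-HA had 14.0%, more than either DLX list, and every other list had less than the DLX lists. Of the 6 positions outside Dlx6 that both lists shared in the member windows, 1 held TAATTA, 3 held TGANTCA and 2 held CAGCTG. These matches describe the letters only. RefSeq promoter windows (300 bp, GRCm38) were given for 5 members, Dlx1, Dlx2, Gad1, Gad2 and Lhx6, as 7 windows, all identical to the genome sequence used. None held TAATTA, against 5.29% of all 32851 promoter windows.

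The Dlx3-Dlx4 locus on chromosome 11 was the richest, with 79 peaks of 14 constructs. BHLHB8-HA had the most at Dlx3 (95120119 to 95125296, plus strand), 13 and 15 in its 2 lists, and 11 and 14 at Dlx4 (95140447 to 95146263, minus strand). In the locus 7 peaks were labelled DLX1-HA and 4 belonged to DLX6-HA, with 2 shared positions. One lay 19333 bp upstream of Dlx3, with peaks of 196 bp in the list labelled DLX1-HA and 238 bp in DLX6-HA, and BHLHB8-HA was the one other construct there. The other lay 11813 bp upstream of Dlx4, with a peak of 343 bp in each list. Upstream of Dlx4 lay 3 more peaks labelled DLX1-HA, 1 of 200 bp at a distance of 424 bp and others at 13888 and 19891 bp. The remaining 2 lay 46019 bp upstream of Dlx3, in the integrin gene Itga3, and 27011 bp upstream. DLX6-HA had a peak 6610 bp past the start of Dlx3, in the 15150 bp between the genes, with BHLHB8-HA, TOX3-HA and ZFP319-HA. It also had one 30519 bp upstream of Dlx3, at the site with the most constructs of the locus (9 constructs, 95088970 to 95089954), where the list labelled DLX1-HA had none.

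The 2 shared positions of this locus held neither TAATTA nor TGANTCA in their central 200 bp, and the one upstream of Dlx3 held CAGCTG, in capitals.
Dlx3 upstream, chr11:95100656-95100855, plus strand: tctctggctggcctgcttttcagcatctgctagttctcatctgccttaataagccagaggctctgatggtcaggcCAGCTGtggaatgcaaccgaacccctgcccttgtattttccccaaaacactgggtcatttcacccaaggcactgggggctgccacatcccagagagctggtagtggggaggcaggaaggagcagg
Dlx4 upstream, chr11:95158033-95158232, plus strand: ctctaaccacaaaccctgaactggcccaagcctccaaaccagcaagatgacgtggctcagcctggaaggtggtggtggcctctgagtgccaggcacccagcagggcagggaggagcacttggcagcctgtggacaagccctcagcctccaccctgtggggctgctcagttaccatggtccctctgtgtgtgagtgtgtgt

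**Figure D3:**
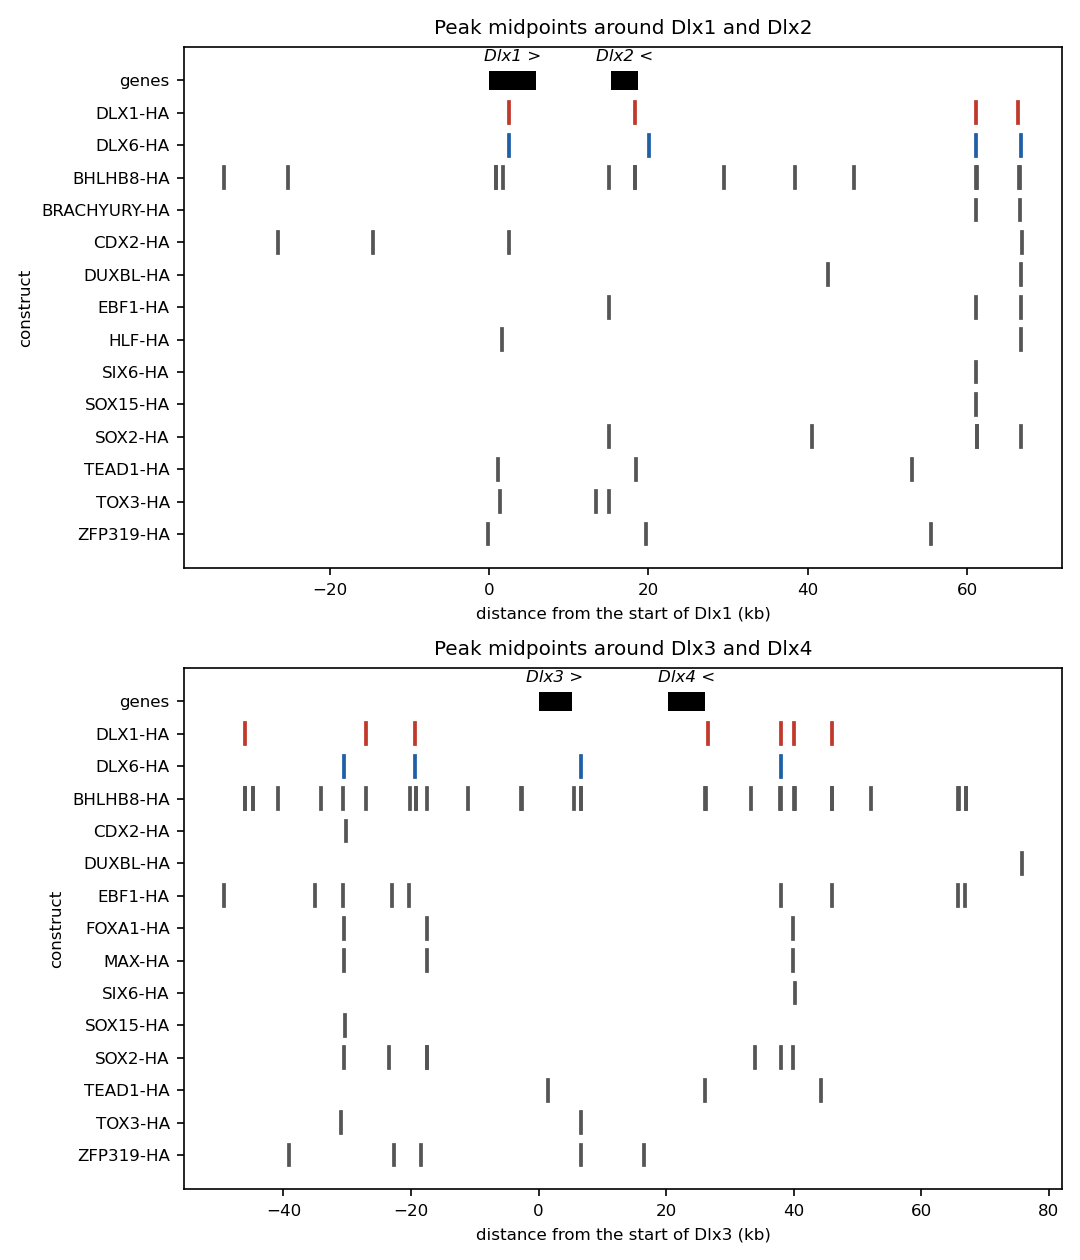
Midpoints of peaks (ticks, 1 row per construct) around Dlx1 and Dlx2 (top) and Dlx3 and Dlx4 (bottom), against distance in kb from the start of Dlx1 or Dlx3, with the genes as black boxes and arrowheads for the direction of transcription. The list labelled DLX1-HA (red) and DLX6-HA (blue) line up in the Dlx1 intron and at the 2 far sites shared by 8 and 9 constructs, and BHLHB8-HA has the most ticks in the lower panel.

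The Dlx5-Dlx6 locus was the poorest, with 8 peaks of 5 constructs. Dlx5 lies on chromosome 6 from 6877805 to 6882085 on the minus strand. Apart from the 3 DLX peaks in Dlx6 described above, TEAD1-HA had 3 peaks, with 1 of 294 bp on a coding exon of Dlx5, and BHLHB8-HA replicate 2 and ZFP319-HA had 1 each. BHLHB8-HA and TEAD1-HA overlapped at 1 site, 6725 bp upstream of Dlx6 by the BHLHB8-HA midpoint. In the 9236 bp between Dlx6 and Dlx5 0 peaks lay in any list. Leaving the body of Dlx6 aside, the data hold no peak of either DLX list within 50 kb of Dlx5 and Dlx6.

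Gad2 (chromosome 2, 22622205 to 22693874, plus strand) had peaks of 11 constructs and Gad1 (70553072 to 70602014, plus strand) of 5. The GAD genes had few peaks near their starts. TEAD1-HA was the one construct with a promoter peak, 317 bp long and 214 bp upstream of a Gad1 start. At Gad1 the list labelled DLX1-HA had 1 peak, of 311 bp, in an intron of the gene and 3773 bp upstream of the nearest coding start. Both BHLHB8-HA lists also had peaks at that position and DLX6-HA had none. At Gad2 both DLX lists had a peak at the site with the most constructs (8 constructs, 22724135 to 22724579), with 326 bp in the list labelled DLX1-HA and 336 bp in DLX6-HA. That site lay 102152 bp past the start of Gad2 and beyond its end. By the midpoint of the peak labelled DLX1-HA, its nearest coding start was that of Apbb1ip, 49722 bp away. DLX6-HA had another peak there, of 332 bp and 99728 bp past the Gad2 start, which SOX2-HA shared. DUXBL-HA had 4 peaks at Gad1 and 5 at Gad2, where 1 of 601 bp covered a coding exon of Gad2. The shared Gad2 site held 2 copies of TGANTCA and 1 of CAGCTG, in capitals.
Gad2 downstream, 8 constructs, chr2:22724278-22724477, plus strand: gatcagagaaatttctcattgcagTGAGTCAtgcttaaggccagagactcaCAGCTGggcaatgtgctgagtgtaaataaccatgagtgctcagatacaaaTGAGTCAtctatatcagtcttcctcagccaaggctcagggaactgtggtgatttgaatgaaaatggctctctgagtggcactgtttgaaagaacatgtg

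Lhx6 (chromosome 2, 36081953 to 36105408, minus strand) had peaks of 7 constructs. A single peak was labelled DLX1-HA, of 238 bp and 152 bp upstream of the start (36105441 to 36105678), where BHLHB8-HA and TEAD1-HA also had peaks. DLX6-HA had none in the window. That start site (36104999 to 36105678) and an intronic site 3992 bp past the start (36099817 to 36100318) each had 3 constructs, the most of the locus. The intronic site had peaks of BHLHB8-HA, SOX15-HA and SOX2-HA in all 5 of their lists. SOX2 and SOX15 are HMG-box factors, and no DLX list had a peak at the intronic site. The promoter site is shown because it was the one DLX position at Lhx6. It held 1 copy each of TGANTCA and CAGCTG, in capitals.
Lhx6 promoter, chr2:36105460-36105659, plus strand: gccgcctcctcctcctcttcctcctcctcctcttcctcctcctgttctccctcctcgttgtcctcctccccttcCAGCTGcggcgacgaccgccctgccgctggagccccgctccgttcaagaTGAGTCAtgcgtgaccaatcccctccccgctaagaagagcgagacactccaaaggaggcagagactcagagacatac

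Whether the DLX constructs placed more of their peaks near the member genes than other factors did was tested over the 17 wild-type constructs with at least 500 peaks, leaving out DLX6-HA's own coding-exon peak. The list labelled DLX1-HA had 16 of 20124 peaks in the member loci, or 0.795 per 1000 (exact 95% interval 0.455 to 1.29). DLX6-HA had 10 of 20983, or 0.477 per 1000 (interval 0.229 to 0.876). They ranked 8 and 15 from the top among the 17. The other 15 constructs had 1.07 ± 1.00 per 1000 (mean and SD, n = 15), from 0.218 in RHOX11-HA to 3.89 in TOX3-HA, whose 5 peaks give an interval of 1.26 to 9.05. The mean of the DLX constructs was 0.636 per 1000, lower by an amount well within that spread (difference −0.432, exact two-sided permutation p = 0.618). The median of the other 15 was 0.668 per 1000. The smallest p this design of 136 choices gives is 0.0147. Without the list labelled DLX1-HA the difference was −0.592 (exact two-sided permutation p = 0.375, chosen once the data had been seen; 1 construct against 15 cannot pass 0.05). Without the DLX peaks in the body of Dlx6 it was −0.482 (exact permutation p = 0.544).

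**Figure D4:**
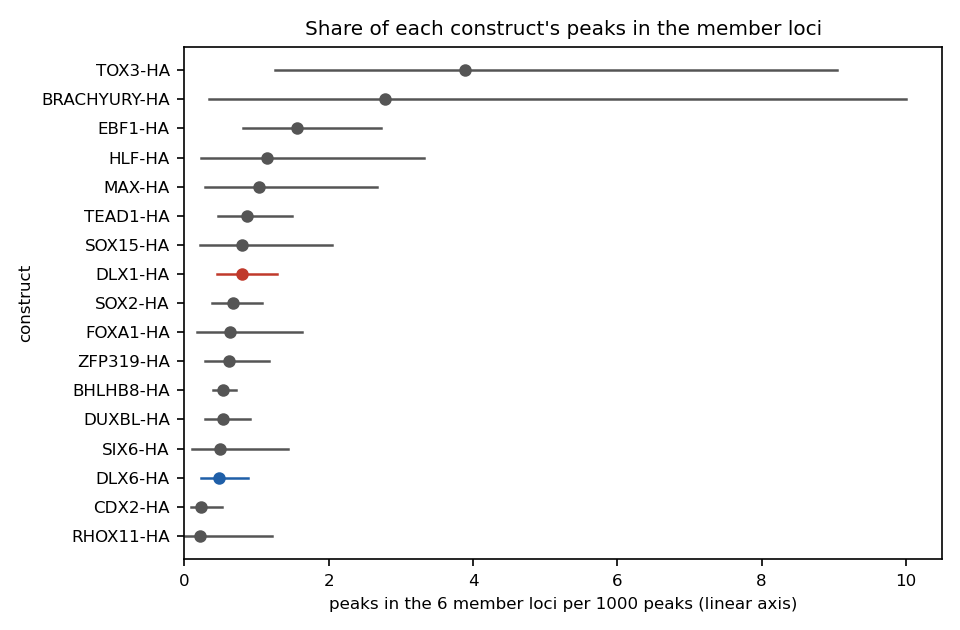
Peaks in the 6 member loci per 1000 peaks of each construct (points), with exact 95% binomial intervals (lines), for the 17 wild-type constructs with at least 500 peaks. The list labelled DLX1-HA (red, 0.795) and DLX6-HA (blue, 0.477) lie among the other constructs, and TOX3-HA is highest with 3.89.

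Overlap of the DLX lists near the member genes was set beside that over the genome. In the member windows 8 of 16 peaks labelled DLX1-HA overlapped a DLX6-HA peak (50.0%, exact interval 24.7 to 75.3), against 50.7% of all 20124. In the other direction 7 of 11 did (63.6%, interval 30.8 to 89.1), against 48.4% of all 20983. Outside the body of Dlx6 the counts were 6 of 14 and 6 of 10. The overlap with BHLHB8-HA was 13 of 16 for the list labelled DLX1-HA and 7 of 11 for DLX6-HA, against the 77.0% and 67.4% of all peaks given above. Of the 3 peaks labelled DLX1-HA that did not overlap BHLHB8-HA, 1 was in the Dlx1 intron and 2 were in Dlx6. So at Dlx2, Dlx3, Dlx4, Gad1, Gad2 and Lhx6 each peak labelled DLX1-HA and nearest to that gene overlapped a BHLHB8-HA peak. Gad1, Gad2 and Lhx6 had only 1 such peak each, and the share over all member windows was near the 77.0% of all peaks of that list.

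The members also differed in how many constructs had a peak near them. Dlx2 had the most, 14 of 24, followed by Dlx3 with 13, Dlx4 with 12, Dlx1 and Gad2 with 11 each, Lhx6 with 7, and Dlx5, Dlx6 and Gad1 with 5 each. The median was 11 against 7 over all protein-coding genes, whose quartiles were 4 and 11, and it was 10 without the list labelled DLX1-HA. Windows of genes differ in length, and per 100 kb the members had a median of 13.4 peaks of the merged constructs against 12.9 over all genes. The values ran from 58.9 at Dlx3 to 7.60 at Dlx6. Of the 87 merged sites in the member windows, 56 (64.4%) had peaks of 1 construct, against 76.3% of the 168546 sites of the genome. In the member windows 6 sites (6.90%) had 5 or more constructs, against 5.60% of sites genome-wide, and 0 had 10 or more.

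Peaks of the DLX constructs were counted in the same way around 3 longer gene lists. Of 37 genes of forebrain GABA neurons, 16 (43.2%) had a peak labelled DLX1-HA and 19 (51.4%) a DLX6-HA peak, against 60.5% and 53.1% of all genes. The most were at Sox6, a factor of interneuron development, with 13 and 27, Reln with 9 and 9, Foxp1 with 9 and 7, and Zeb2 with 5 and 8. These counts were not scaled to the length of the window. Many other constructs also had peaks there, for 13 constructs in all at Sox6, 12 at Reln, 15 at Foxp1 and 12 at Zeb2. Of 21 genes of the branchial arches and bone, 8 (38.1%) and 9 (42.9%) had a peak. Here the most were at Runx2, the osteoblast factor, with 17 and 10, and at Sp7, another osteoblast factor, with 6 and 3. Each of these genes had peaks of 15 constructs. Of 18 genes of cortical glutamate neurons, 9 (50.0%) and 6 (33.3%) had one. The most were at Camk2a, with 4 and 4 (14 constructs in all), and Rorb, with 5 and 2 (16 constructs). None of the 3 lists held a larger share of genes with a DLX peak than all protein-coding genes did. The median number of constructs with a peak was 5 per gene in each list, against 7 over all genes.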

How the data were processed

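Peak lists of 28 anti-HA ChIP-seq samples of NIH-3T3 lines were used; the input sample has no list. Per the study's methods and the submitters' processing notes, the authors aligned paired-end reads to mm10 with STAR 2.5.3a, allowing mates to lie farther apart than the coding introns of Dlx6, removed duplicates with Picard, called peaks per sample with MACS2 2.1.1.20160309, and discarded peaks overlapping input peaks or blacklisted regions. The notes also name deepTools 2.4.2. The deposited columns are chromosome, start and end, with no heights or read numbers, so depth is unknown.

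Genes came from GENCODE vM21. An overlap of 1 bp counted. Duplicate lists were merged per construct. Peaks were placed, in order, on coding exons, UTR exons, within 1 kb of a start, in introns or between genes. Distances run from peak midpoints to the nearest start of a coding transcript. Python 3.11.15, NumPy 2.4.6, SciPy 1.17.1 and Matplotlib 3.10.9 were used. Shares have exact binomial intervals. The test is an exact permutation over constructs.

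Members and gene lists were chosen with earlier results of these data known. Named are all members, DLX peaks, the most shared site per locus and up to 4 genes per list with the most DLX peaks. Also named are the 3 genes most alike to each member among those searched, which did not cover every chromosome. Bhlha15, Prr3 and the CAGCTG counts were chosen after their values were seen. Alternatives varied window, overlap rule, peak width, shared sites, list size, ranks and replicates. On simulated lists the counts equalled the planted ones.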

Additional observations from a re-analysis of the deposited data

How the results depend on the processing

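Each of 5 results was recomputed under alternatives, 49 values in all, of which 44 changed neither direction nor call or, for counts, stayed within 1.5 times. The other 5 were counts that depend on how much of the genome or the lists is looked at. The median number of constructs per member, 11, was 6 with 20 kb on either side, 7 with 50 kb on either side of the start site and 7 with peaks of at least 300 bp. The number of peaks in the member windows, 192, was 108 with 20 kb and 119 with peaks of at least 300 bp. The difference between the DLX constructs and the others stayed below 0 in every alternative run, from −0.592 without the list labelled DLX1-HA to −0.0599 per 1000 with constructs of at least 5000 peaks (−2.83 on ranks), with exact permutation p from 0.375 to 0.909. No paired analysis was possible because DLX1-HA and DLX6-HA have 1 list each and only 4 other constructs have duplicates. Each DLX count rests on 1 library of unknown depth, and a missing peak means that none was called, not that the site is unbound.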

Other observations

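For each member, protein-coding genes outside the member loci were ranked by how similar their numbers of peaks over the 24 constructs were. The measure was Pearson's r of log2(peaks + 1), as a description across constructs whose lists differ in length. The search did not take in every chromosome, so "most like" below means among the genes searched only. Dlx1 was most like Zfp36l1 (0.96), Klhl24 (0.95) and Cacna1s (0.95), and Dlx2 like Hip1r (0.94), Steap3 (0.92) and Tada2a (0.91). Dlx3 was most like Pes1 (0.96), Chmp6 (0.96) and Gna12 (0.95), and Dlx4 like Baiap2 (0.98), Slc47a2 (0.97) and 0610030E20Rik (0.96). Dlx5 and Dlx6, which share their window peaks, were both most like Esx1 (0.92), Enam (0.90) and Slc25a41 (0.89). Gad1 was most like Fndc4 (0.97), Adamts9 (0.95) and Ntrk2 (0.95), and Gad2 like Adh7, Gm10959 and Gm4788 (0.93 each). Lhx6 was most like Ptpn21, BC004004 and Sugp1 (0.95 each).

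TOX3-HA, an HMG-box factor with a list of 1286 peaks, had 5 of them in the member loci. One of 614 bp lay at the start of Dlx1 (71529214 to 71529827), 1 of 313 bp and 1 of 334 bp lay between Dlx1 and Dlx2, and 2 lay at Dlx3, 6599 bp past its start and 31048 bp upstream.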
